A study of Mus musculus with 17 samples.

Results

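Macrophages of the kidney were followed through 10 marker genes: C1qa, C1qb, C1qc, Csf1r, Cx3cr1, Lyz2, Clec7a, Mrc1, Tyrobp and Adgre1. They were chosen by symbol, and all 10 were found among the 55487 gene identifiers of the table. Transcripts were counted at their 3′ ends in kidneys of male mice aged 16 weeks on the BKS background, 1 library per animal. The controls (db/m, n = 8) are lean and carry 1 copy each of the leptin receptor mutation Leprdb and of the coat-colour mutation Dock7m. The diabetic and obese animals (db/db, n = 9) carry 2 copies of Leprdb and are wild type for Dock7m, so the groups differ at both loci. Groups follow the sample titles. The genotype field states the opposite for all 17 samples, and if that field were right every direction given here would turn round. Nothing in the labels marks a sampling or library batch, and all db/db libraries carry higher library numbers than the db/m ones, so a batch that followed those numbers and the group cannot be told apart.

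Tissue macrophages live between the tubules and vessels of the kidney, take up debris and immune complexes, and renew themselves locally or from blood monocytes. Their survival depends on the receptor Csf1r, which binds the growth factors Csf1 and Il34. Many surface receptors of these cells signal through the adaptor Tyrobp or through their own cytoplasmic motif to the kinase Syk, and macrophages are a main source of C1q, the protein that starts the classical complement pathway.

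The 3 chains of C1q are encoded side by side on chromosome 4, the chromosome that also carries Lepr. RefSeq promoters (mouse build GRCm38.p6) were at hand for 6 of the 10 genes. Shown are the 250 bases before the start of C1qb (chr4:136886201-136886450, minus strand) and C1qc (chr4:136892915-136893164, minus strand), neighbours that behaved differently in 1 library, and of Clec7a (chr6:129472780-129473029, minus strand), the gene with the clearest change. Capitals mark GAGGAAG, a form of the site bound by the myeloid factor PU.1, searched on both strands.
C1qb: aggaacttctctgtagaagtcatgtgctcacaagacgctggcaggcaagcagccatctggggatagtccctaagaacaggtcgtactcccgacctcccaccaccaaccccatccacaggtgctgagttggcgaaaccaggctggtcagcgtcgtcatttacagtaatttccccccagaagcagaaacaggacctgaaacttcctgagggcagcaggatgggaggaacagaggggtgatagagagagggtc
C1qc: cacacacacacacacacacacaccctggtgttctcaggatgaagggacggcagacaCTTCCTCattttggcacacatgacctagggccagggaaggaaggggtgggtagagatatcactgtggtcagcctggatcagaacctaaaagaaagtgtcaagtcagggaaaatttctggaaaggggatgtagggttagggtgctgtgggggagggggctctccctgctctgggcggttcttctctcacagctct
Clec7a: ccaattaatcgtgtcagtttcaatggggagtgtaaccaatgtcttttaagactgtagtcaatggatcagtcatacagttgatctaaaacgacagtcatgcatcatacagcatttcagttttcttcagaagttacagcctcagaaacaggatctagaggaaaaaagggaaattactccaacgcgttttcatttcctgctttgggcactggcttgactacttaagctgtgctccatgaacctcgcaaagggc
GAGGAAG occurred once in C1qc, on the opposite strand and 194 bases before the start, and in neither of the other two. Of the remaining genes, Mrc1 held it 2 times, 36 and 168 bases before the start, and Cx3cr1 and Lyz2 held none. Among 32536 mouse promoter windows of the same length, 10.7% held GAGGAAG. Only this exact form was searched, so a window without it can hold other forms of the site. The shorter GAGGAA stands in the C1qb and Clec7a sequences as printed, and its share among all windows was not counted.

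Libraries held 3256427 to 7627747 gene counts, in which 1 count was worth 0.127 to 0.310 CPM (the count scaled to a common library size, with TMM factors). The markers of proximal tubule cells were abundant and summed to 5933 to 8308 CPM over the 17 libraries. The ubiquitous Gapdh had only 18 and 25 counts in the db/m and db/db groups, so a low count in this table need not mean low expression. By principal components, 3 libraries stood apart from their group: db/m replicate 8, db/db replicate 4 and db/db replicate 8. The last of these held the lowest share of mitochondrially encoded counts, 22.0% against 25.4% to 30.6% in the other libraries.

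Of the 10 genes, 9 had enough counts to be tested, and 1 of them, Clec7a, was lower in db/db by edgeR's quasi-likelihood test. Over all 12131 genes tested, 7.39% were called, 3.49% lower and 3.91% higher. No marker was called higher. The log2 fold changes (db/db minus db/m) of the 9 ran from -1.48 for Clec7a to -0.02 for Lyz2, with a median of -0.53, whereas the median over all tested genes was 0.00 and 50.5% of those genes had positive values. For each of the 10 genes the groups overlapped, while among all genes tested 1.05% had every db/db library below every db/m library and 0.734% the reverse. The markers share their cells and are not independent of each other. In whole tissue, fewer macrophages and less RNA of these genes per macrophage cannot be told apart.

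**Figure D1:**
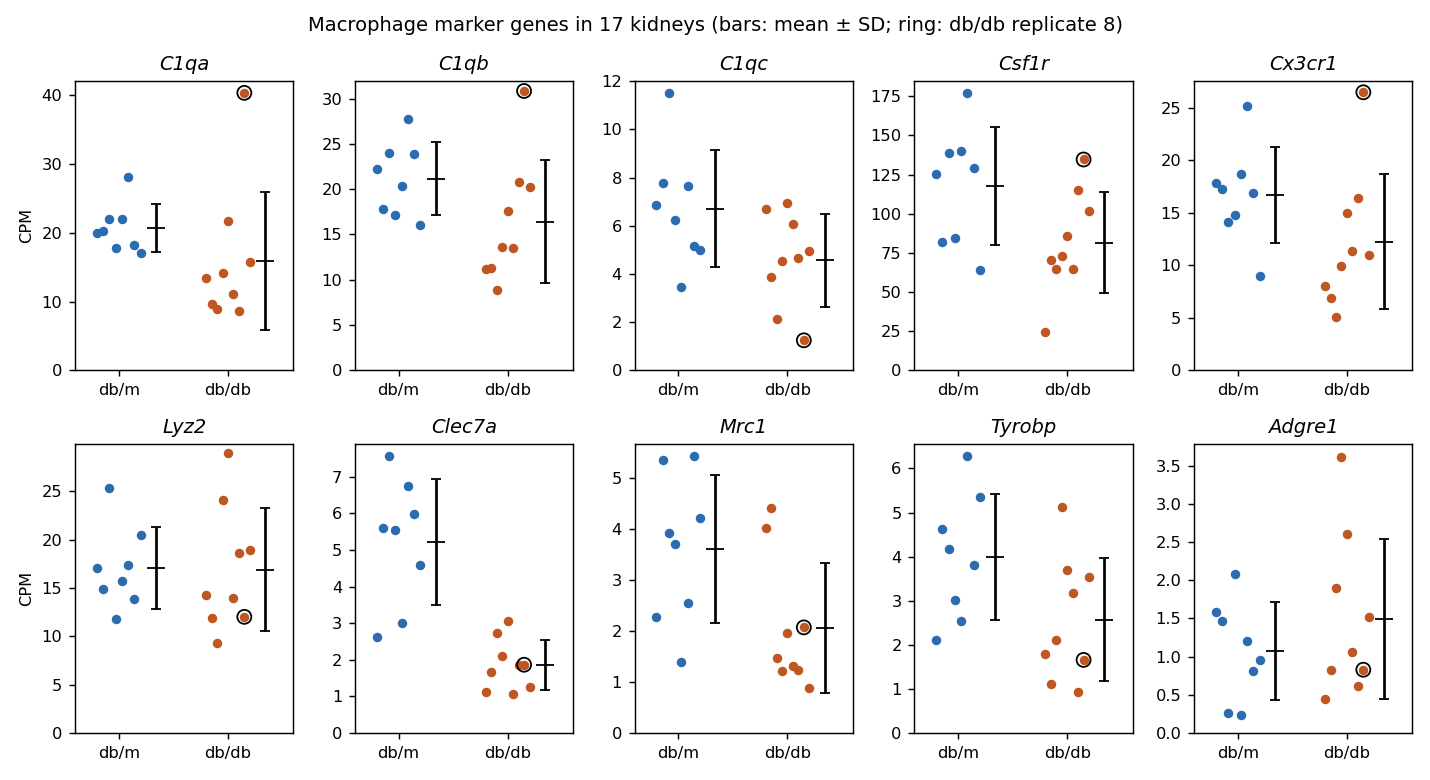
CPM of the 10 macrophage markers (y axes, each from 0) in db/m (blue, n = 8) and db/db (orange, n = 9) kidneys, 1 point per animal, with mean ± SD beside them. Clec7a shows the clearest separation, from 2.63 to 7.58 CPM in db/m and from 1.06 to 3.05 CPM in db/db, and the ringed db/db replicate 8 is the highest db/db point for C1qa, C1qb, Csf1r and Cx3cr1 and the lowest for C1qc.

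Clec7a (ENSMUSG00000079293, chromosome 6) encodes Dectin-1, a C-type lectin that binds fungal beta-glucans and signals through Syk. Its level ran from 2.63 to 7.58 CPM in db/m (median 5.57) and from 1.06 to 3.05 CPM in db/db (median 1.86). All 9 db/db animals lay under the db/m median, and 7 of them lay under the lowest db/m animal. Clec7a fell 2.78-fold in the diabetic kidneys, from 5.21 ± 1.72 to 1.86 ± 0.693 CPM (SD), a log2 fold change of -1.48 (SE 0.27, 95% interval -2.03 to -0.92; edgeR quasi-likelihood adjusted p = 0.000936). Permuting the group labels over mean log2 CPM (exact, two-sided) gave p = 0.000288, unadjusted. The change rests on 195 counts in the controls and 74 in the diabetic animals. In raw counts the db/m libraries held 13 to 45 and the db/db libraries 4 to 14.

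Mrc1 (ENSMUSG00000026712, chromosome 2) encodes the mannose receptor CD206, another lectin, which takes up glycoproteins and marks resident and alternatively activated macrophages. It spanned 1.39 to 5.44 CPM in db/m (median 3.81) and 0.887 to 4.41 CPM in db/db (median 1.48). In db/db, replicates 1 and 2 stood at 4.02 and 4.41 CPM and the other 7 at 2.07 CPM or lower, and the groups overlapped. The log2 fold change was -0.80 (SE 0.34; edgeR adjusted p = 0.176), on 131 and 80 counts. Its exact permutation p was 0.0292 without adjustment.

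Csf1r (ENSMUSG00000024621, chromosome 18), the receptor that keeps macrophages alive, ranged from 64.2 to 177 CPM in db/m (median 127) and from 24.6 to 135 CPM in db/db (median 72.7). Of the db/db kidneys 8 of 9 lay under the db/m median, but only replicate 1 lay under the lowest control. The mean went from 118 ± 37.6 to 81.5 ± 32.3 CPM, a log2 fold change of -0.53 (SE 0.24; edgeR adjusted p = 0.216) that did not pass the threshold. It was the deepest counted of the 10 genes, with 4543 and 3371 counts, so the spread between animals rather than counting limited its precision.

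Of the ligands of this receptor, Il34 was called lower and Csf1 was not called. Il34, which tubule cells make, spanned 25.0 to 99.3 CPM in db/m (median 45.9) and 7.15 to 32.3 CPM in db/db (median 15.7). The groups overlapped only between 25.0 and 32.3 CPM. Il34 fell from 47.4 ± 23.9 to 17.9 ± 6.94 CPM, a log2 fold change of -1.40 (SE 0.27; edgeR adjusted p = 0.00167). Csf1 itself, the other ligand, was low, at 2.89 ± 1.31 and 2.50 ± 1.48 CPM, with a log2 fold change of -0.20 (SE 0.41; edgeR adjusted p = 0.828).

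Cx3cr1 (ENSMUSG00000052336, chromosome 9), the receptor for fractalkine on monocytes and resident macrophages, stood at 9.00 to 25.2 CPM in db/m (median 17.1) and 5.07 to 26.5 CPM in db/db (median 11.03). The highest of all 17 values was that of db/db replicate 8. The log2 fold change was -0.45 (SE 0.26; edgeR adjusted p = 0.336). Without the 3 libraries that stood apart, Cx3cr1 was at -0.77 (SE 0.22) and was called lower (edgeR adjusted p = 0.0412), while without db/db replicate 8 alone it was at -0.69 (SE 0.22; edgeR adjusted p = 0.0662) and was not. Over its 25 alternative fits the edgeR or DESeq2 adjusted p ran from 0.0412 to 0.521. Its ligand fractalkine, Cx3cl1, was at 26.5 ± 8.58 and 18.3 ± 7.80 CPM, with a log2 fold change of -0.54 (SE 0.25; edgeR adjusted p = 0.209).

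Of 17 listed ligands and adhesion molecules that recruit or feed macrophages, 9 were tested, with Il34 lower and Mif higher. Mif, a cytokine that holds macrophages at sites of inflammation, rose from 38.1 ± 8.07 to 85.0 ± 35.2 CPM (log2 fold change 1.16, SE 0.20; edgeR adjusted p = 0.000602), and its groups did not overlap. Vcam1, an adhesion molecule for leukocytes, was at -0.37 (SE 0.15; edgeR adjusted p = 0.157). The median of the 9 was -0.21. Most CC chemokines were too low to test, Ccl2 among them with 8 and 4 counts.

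Tyrobp (ENSMUSG00000030579, chromosome 7) encodes DAP12, the adaptor that passes signals of several myeloid receptors to Syk. It lay between 2.11 and 6.29 CPM in db/m (median 3.996) and between 0.929 and 5.13 CPM in db/db (median 2.11). Of the db/db animals, 4 were below the lowest control, and replicate 4 was the highest of its group. The log2 fold change was -0.63 (SE 0.31; edgeR adjusted p = 0.249) on 155 and 107 counts, and the exact permutation p was 0.0482 without adjustment. Among 17 genes of this signalling route, 6 could be tested and 0 were called, by edgeR at an adjusted or an unadjusted p under 0.05. Their median was -0.19, with the phosphatase Ptpn6 at -0.28 (SE 0.14), the phospholipase Plcg2 at 0.33 (SE 0.18) and the protease and scaffold Malt1 at -0.29 (SE 0.18). Syk itself had 62 and 50 counts, too few to test.

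C1qa (ENSMUSG00000036887) ran from 17.05 to 28.2 CPM in db/m (median 20.1) and from 8.67 to 40.4 CPM in db/db (median 13.4). Below the lowest db/m value lay 7 of the 9 db/db animals, while replicate 5 at 21.8 CPM and replicate 8 at 40.4 CPM lay inside and above the db/m range. With all libraries the log2 fold change was -0.36 (SE 0.25; edgeR adjusted p = 0.441). Without db/db replicate 8, C1qa was at -0.67 (SE 0.18) and was called lower (edgeR adjusted p = 0.0230), and so it was without the 3 libraries that stood apart (-0.72, SE 0.19; edgeR adjusted p = 0.0282). Over all 25 alternative fits the adjusted p ran from 0.0230 to 0.604.

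C1qb (ENSMUSG00000036905) ran from 16.1 to 27.7 CPM in db/m (median 21.3) and from 8.87 to 30.9 CPM in db/db (median 13.6). The highest value was again that of db/db replicate 8, and 5 db/db animals lay under every control. Its log2 fold change was -0.36 (SE 0.21; edgeR adjusted p = 0.329), and -0.53 (SE 0.18; edgeR adjusted p = 0.0727) without db/db replicate 8.

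C1qc (ENSMUSG00000036896) ran from 3.47 to 11.5 CPM in db/m (median 6.54) and from 1.24 to 6.96 CPM in db/db (median 4.64). Here db/db replicate 8 held the lowest value of all 17 libraries. The log2 fold change was -0.55 (SE 0.28; edgeR adjusted p = 0.273), and -0.42 (SE 0.25; edgeR adjusted p = 0.342) without that library.

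The 3 chains are needed together to build C1q. Of the summed counts of the chains in a library, C1qc made up 7.58% to 20% in db/m. In db/db the range was 10.6% to 21.4% in 8 libraries and 1.71% in replicate 8, where C1qa, C1qb and C1qc had 195, 149 and 6 counts (95% Wilson interval of the C1qc share 0.788% to 3.69%, counting error only). C1qa made up 55.7% there, against 25.5% to 47.98% in the other 16 libraries. A second uneven library was db/db replicate 7, with 28 counts of C1qa against 67 of C1qb. What set these libraries apart was not tested.

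**Figure D2:**
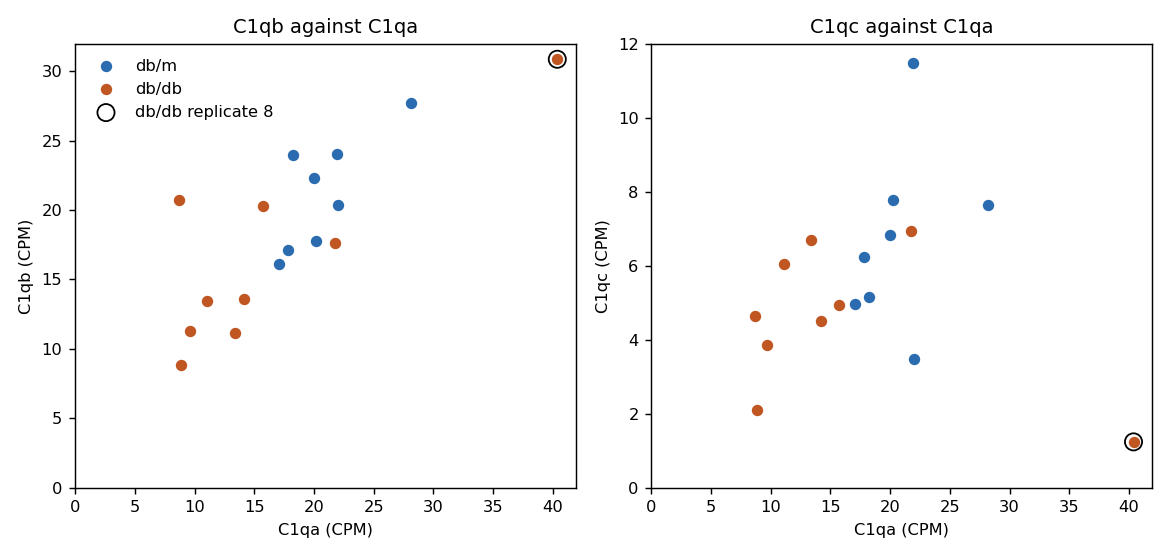
C1qb (left) and C1qc (right) against C1qa, each in CPM, 1 point per kidney (db/m blue, db/db orange). The ringed db/db replicate 8 is at 40.4 CPM of C1qa and 30.9 CPM of C1qb but at 1.24 CPM of C1qc, while the other libraries have 2.11 to 11.5 CPM of C1qc.

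Over animals, C1qa and C1qb had positive correlations of log2 CPM in both groups (db/m, n = 8: Pearson r = 0.740, exact permutation p = 0.0284, Spearman rho = 0.714, exact p = 0.0576; db/db, n = 9: r = 0.716, exact p = 0.0273, rho = 0.467, exact p = 0.213). Neither passed adjustment over the 18 relations computed (adjusted exact p = 0.171 for both r). Without the 2 animals farthest from the median of C1qa, r was 0.296 in db/m (exact p = 0.525) and 0.263 in db/db (exact p = 0.538). Dropping these animals narrows the range of C1qa, which by itself lowers r, so this cannot tell whether both rest on them. Without 1 animal at a time, r ran from 0.537 to 0.901 in db/m and from 0.390 to 0.922 in db/db. The mean of the 3 chains and Cx3cr1 gave the largest r, 0.790 in db/db (exact permutation p = 0.0122, adjusted 0.171; rho = 0.633, exact p = 0.0760), with r = 0.696 (exact p = 0.0855) without 2 animals. In db/m the same relation was at r = 0.525 (exact permutation p = 0.188, adjusted 0.484; rho = 0.262, exact p = 0.536), and 0.647 (exact p = 0.136) without 2 animals. C1qa and C1qc were at r = -0.358 in db/db (exact permutation p = 0.337, adjusted 0.563; rho = 0.133, exact p = 0.744) and 0.542 (exact p = 0.207) without 2 animals. None of the 18 correlations passed adjustment (lowest adjusted exact p = 0.171).

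Of 17 genes that bind C1q or belong to the classical pathway, 13 were tested, 2 rose and 1 fell, with a median of -0.14. C3, the component on which all complement routes meet, rose from 20.3 ± 6.22 to 60.9 ± 16.8 CPM (log2 fold change 1.59, SE 0.20; edgeR adjusted p = 1.34e-05), and Cd93, a surface protein of endothelial and myeloid cells that was first described as a C1q receptor, rose from 27.2 ± 5.77 to 41.4 ± 6.998 CPM (0.61, SE 0.14; edgeR adjusted p = 0.00971). Of the 4 genes under the filter, Cd55, a surface protein that shields cells from complement, had 140 and 62 counts and was called lower without a filter (-1.25, SE 0.35; edgeR adjusted p = 0.0402) and by DESeq2 (adjusted p = 0.00805), but not by edgeR without db/db replicate 8 (0.0581). Masp1, a protease of the lectin pathway, had 59 and 153 counts (1.32, SE 0.39; edgeR adjusted p = 0.0625) and was called higher by DESeq2 (adjusted p = 0.0199). With the replicate number as a block, the call of Cd93 ended (edgeR adjusted p = 0.0791). C4a was lower (-3.48, SE 0.40; edgeR adjusted p = 5.83e-06), but it has a near-identical neighbour, C4b, at 0.29 (SE 0.40; edgeR adjusted p = 0.736) whose sign turned in 4 of 25 alternatives, and the counting could have split their reads. The proteases that C1q carries were not called: C1ra was at 11.6 ± 1.90 and 9.64 ± 1.88 CPM and C1s1 at 3.47 and 2.64 CPM on average.

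Lyz2 (ENSMUSG00000069516, chromosome 10), the lysozyme of macrophages and neutrophils that digests bacterial walls, ranged from 11.8 to 25.4 CPM in db/m (median 16.4) and from 9.29 to 28.9 CPM in db/db (median 14.3). The db/db values ran from below to above the whole db/m range. Its log2 fold change was -0.02 (SE 0.21, 95% interval -0.45 to 0.41; edgeR adjusted p = 0.974), an interval that does not reach the change of Clec7a. The paralog Lyz1 had 7 and 4 counts, and the counting could have split reads between the 2 genes.

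Adgre1 (ENSMUSG00000004730, chromosome 17) encodes F4/80, the classical surface marker of mouse macrophages. Over the 8 db/m libraries it had 42 counts (1 to 9 in each) and over the 9 db/db libraries 60 (2 to 12 in each), which is 0.232 to 2.08 and 0.447 to 3.62 CPM. These counts were too few for the filter. Fitted with all 25107 genes that had any count, of which 1.66% were called lower and 1.62% higher, it was at 0.45 (SE 0.46, 95% interval -0.50 to 1.40; edgeR adjusted p = 0.614), the 1 positive value among the 10 genes. Cd68, a lysosomal protein used in the same way, was also under the filter, with 86 and 69 counts.

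Other macrophage markers gave a mixed picture: of 32 listed genes, 11 were tested, 2 fell and 0 rose, with a median of -0.33. Aif1, the cytoskeletal protein Iba1, fell from 4.75 ± 0.967 to 2.35 ± 1.33 CPM (-1.03, SE 0.28; edgeR adjusted p = 0.0256). Irf8, a transcription factor of monocytes, macrophages and dendritic cells, fell from 25.5 ± 6.33 to 17.2 ± 4.74 CPM (-0.58, SE 0.17; edgeR adjusted p = 0.0421). The lysosomal protease Ctss was at 13.2 ± 1.98 and 7.74 ± 3.38 CPM and just missed the threshold (-0.75, SE 0.23; edgeR adjusted p = 0.0541). These calls depended on single libraries. Irf8 kept its call in 5 of 17 fits that left out 1 library (edgeR adjusted p 0.0163 to 0.0998) and Aif1 in 14 of 17, the exceptions being db/m replicates 6 and 7 and db/db replicate 9 (0.0114 to 0.0561). Irf8 also lost its call without a filter (edgeR adjusted p = 0.0571) and with the replicate number as a block (0.0781). Aif1 also lost it without a filter and without the 3 libraries that stood apart (edgeR adjusted p up to 0.0809). Ctss was called in 4 of 17, without db/db replicate 1, 5, 6 or 9 (0.0336 to 0.102). Leaving out db/m replicate 4 or db/m replicate 7, edgeR called 1 gene of this list higher.

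**Figure D3:**
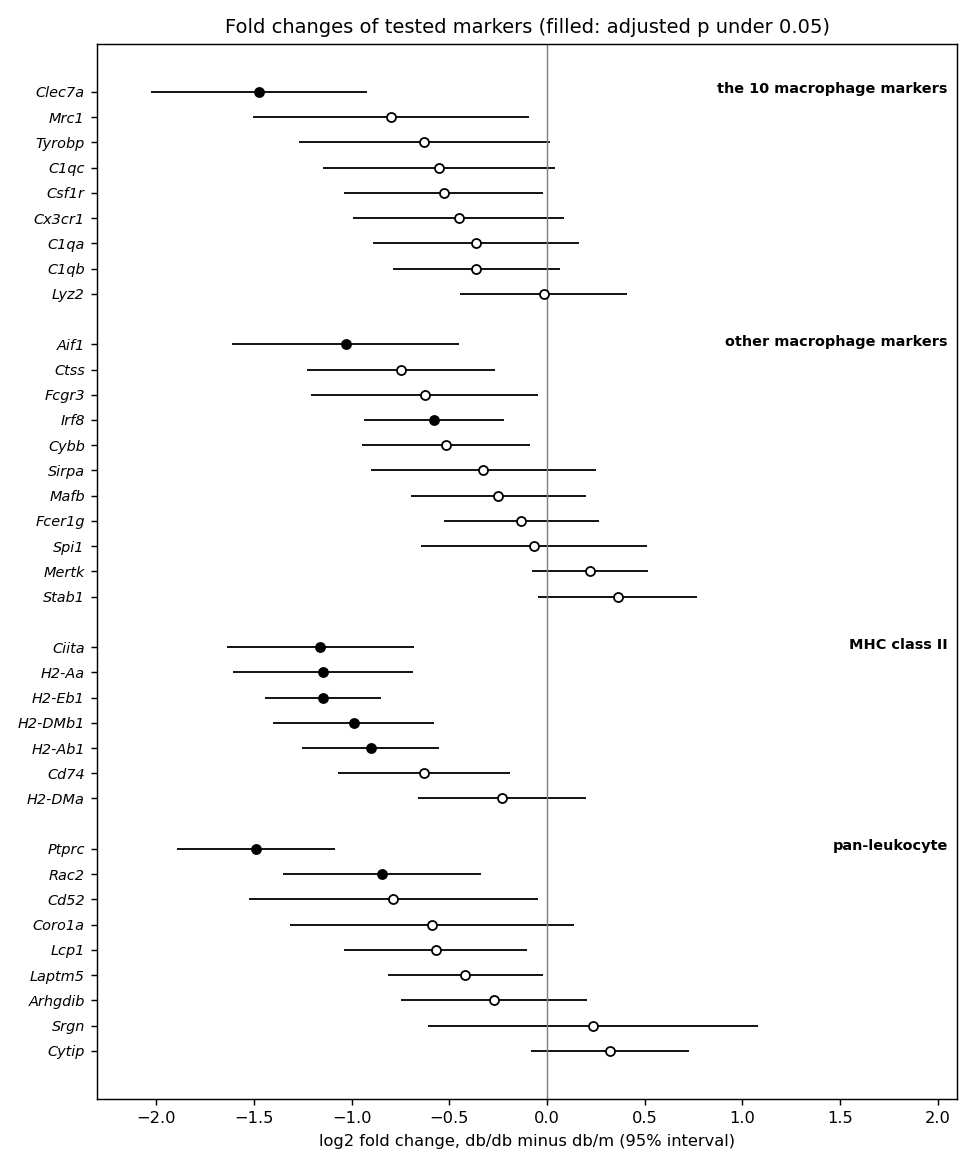
Log2 fold change (db/db minus db/m, x axis) with its 95% interval for the tested genes of 4 lists, filled where the edgeR adjusted p was under 0.05. Clec7a at -1.48 is the 1 filled point among the 9 tested macrophage markers, and 5 of 7 MHC class II points are filled, all below 0.

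Some genes that macrophages share with other immune cells were called lower. Ptprc, the leukocyte antigen CD45, fell from 10.4 ± 2.73 to 3.65 ± 0.840 CPM (-1.49, SE 0.19; edgeR adjusted p = 2.36e-05), with 6.33 CPM in the lowest db/m and 4.57 CPM in the highest db/db library. Of 15 pan-leukocyte genes 9 were tested, 2 fell and 0 rose, with a median of -0.57. Of the 9, 7 had negative values. Rac2, a small GTPase of blood cells, was the other (-0.84, SE 0.24; edgeR adjusted p = 0.0364), and its call ended in 9 of the 16 fits without 1 library that could test it (edgeR adjusted p 0.0235 to 0.0952). It also ended by DESeq2 (adjusted p = 0.0591), and by edgeR without a filter (adjusted p = 0.149), without the 3 libraries that stood apart (0.0701) and with the replicate number as a block (0.191). The actin-bundling protein Lcp1 was at -0.57 (SE 0.23; edgeR adjusted p = 0.141).

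MHC class II genes, which present antigen on macrophages, dendritic cells and B cells, were lower in 5 of 7, with a median of -0.99. H2-Eb1 fell from 86.8 ± 10.3 to 39.3 ± 10.2 CPM (-1.14, SE 0.14; edgeR adjusted p = 1.42e-05), H2-Ab1 from 83.1 ± 12.8 to 44.5 ± 15.7 CPM (-0.90, SE 0.17; edgeR adjusted p = 0.00126) and H2-Aa from 103 ± 23.5 to 46.7 ± 19.0 CPM (-1.15, SE 0.22; edgeR adjusted p = 0.00190).

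Of genes tied to activation, few could be tested. In the alternative activation list 3 of 10 were tested and 0 called by edgeR (1 at an unadjusted p under 0.05): the lectin Clec10a at -0.92 (SE 0.32; edgeR adjusted p = 0.0858), the receptor subunit Il4ra at 0.17 (SE 0.17) and Tgfb1 at 0.09 (SE 0.28). Tgfb1 was at -0.29 in the lowest of its 25 alternative fits and at 0.19 in the highest, so its sign is not settled. In the inflammatory list, 1 of 11 was tested: Irf5, a transcription factor of inflammatory macrophages, fell from 4.28 ± 1.62 to 1.62 ± 1.21 CPM (-1.37, SE 0.35; edgeR adjusted p = 0.0168). Its call ended with the replicate number as a block and without the 3 libraries that stood apart, and its edgeR and DESeq2 adjusted p ran from 0.00548 to 0.0677 over 24 alternatives.

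Markers of other cells moved beside the macrophage genes, and their part in the falls was not tested. Of 3 tested monocyte genes, S100a4 rose (0.76, SE 0.22; edgeR adjusted p = 0.0364), a call that ended in 11 of 17 fits without 1 library (edgeR adjusted p 0.00151 to 0.0756) and with the replicate number as a block (0.0932). Plac8 was at -1.03 (SE 0.51; edgeR adjusted p = 0.256, but 0.0389 without db/db replicate 1) and Vcan at 0.05 (SE 0.59; negative in 6 of 25 alternatives). Ccr2, the chemokine receptor that brings monocytes out of the marrow, was under the filter with 82 and 26 counts. Fitted without a filter it was at -1.75 (SE 0.57; edgeR adjusted p = 0.0981), and DESeq2 called it lower (adjusted p = 0.0339). The 9 monocyte genes, Vcan and S100a4 foremost, summed to 13.04 to 72.6 CPM in controls and 23.6 to 49.4 CPM in diabetic animals. Both tested dendritic cell genes, Naaa (0.04, SE 0.23) and Zbtb46 (-0.01, SE 0.16), had values near 0 whose sign turned in 7 of 25 alternatives each, and the 11 listed genes, mostly through these 2, summed to 21.5 to 37.2 and 21.0 to 39.1 CPM. The other 9 were under the filter, and more of them had fewer counts in db/db: Wdfy4 had 110 and 29, Itgax 83 and 37, Clec9a 22 and 6, Xcr1 20 and 0, Siglech 15 and 3 and Flt3 5 and 0, whereas Batf3 had 29 and 59. Without a filter, edgeR called Wdfy4 (adjusted p = 0.00836) and Xcr1 (adjusted p = 0.00949) lower and none of the others. B and plasma cell genes were lower in 2 of 3 tested, Igha among them (-3.80, SE 0.36; edgeR adjusted p = 4.11e-07), with sums of 35.4 to 419 CPM in controls and 7.12 to 48.9 CPM in diabetic animals. None of 16 T and NK cell genes passed the filter on low counts, and their sums were 6.33 to 15.7 CPM in controls and 3.59 to 8.70 CPM in diabetic animals. The T cell receptor gene Trbc2 had 77 and 27 counts, at -1.64 without a filter (SE 0.54; edgeR adjusted p = 0.0997), and was called lower by DESeq2 (adjusted p = 0.0375). Another T cell receptor gene, Trac, did not fall, with 58 and 70 counts (0.20, SE 0.50; edgeR adjusted p = 0.865). Lck had 34 and 32 counts and Cd8a 7 and 11, whereas Trbc1 had 20 and 5 and Cd4 20 and 6. Of 13 neutrophil genes 0 could be tested, and Ly6g, Mpo and Elane had 0 counts. Others had counts: S100a8 had 48 and 76, S100a9 59 and 67, Mmp9 18 and 17, Retnlg 4 and 13 and Cxcr2 3 and 0. Without a filter edgeR called none of these. The 6 mast cell and eosinophil genes summed to at most 2.61 CPM.

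Cells of the kidney's own structures were counted for comparison. Of 9 endothelial genes 0 were called by edgeR (1 at an unadjusted p under 0.05), with a median of 0.00 and Kdr at -0.23 (SE 0.10). Of 5 fibroblast and pericyte genes 0 were called (1 at an unadjusted p under 0.05), with Dcn at -0.52 (SE 0.24), which was called only without db/db replicate 9 (-0.73; edgeR adjusted p = 0.0370). Of 5 podocyte genes 2 rose, with a median of 0.56, and 1 of 7 proximal tubule genes rose, the glucose transporter Slc5a2 (0.46, SE 0.13; edgeR adjusted p = 0.0276), whose call ended in 6 of 17 fits without 1 library and with the replicate number as a block (edgeR adjusted p up to 0.0635). Haemoglobin and other erythrocyte genes had a median of 0.36 and 0 of 5 called (0 at an unadjusted p under 0.05), with Hbb-bt at 0.54 (SE 0.28). Adipocyte genes, which mark attached fat, had 0 of 4 called (0 at an unadjusted p under 0.05) and varied widely between animals, from 13.9 to 875 CPM in sum among controls and from 13.9 to 397 CPM among diabetic animals, and Fabp4 was at -1.31 (SE 0.68), from -1.52 to 0.38 over its alternatives.

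**Figure D4:**
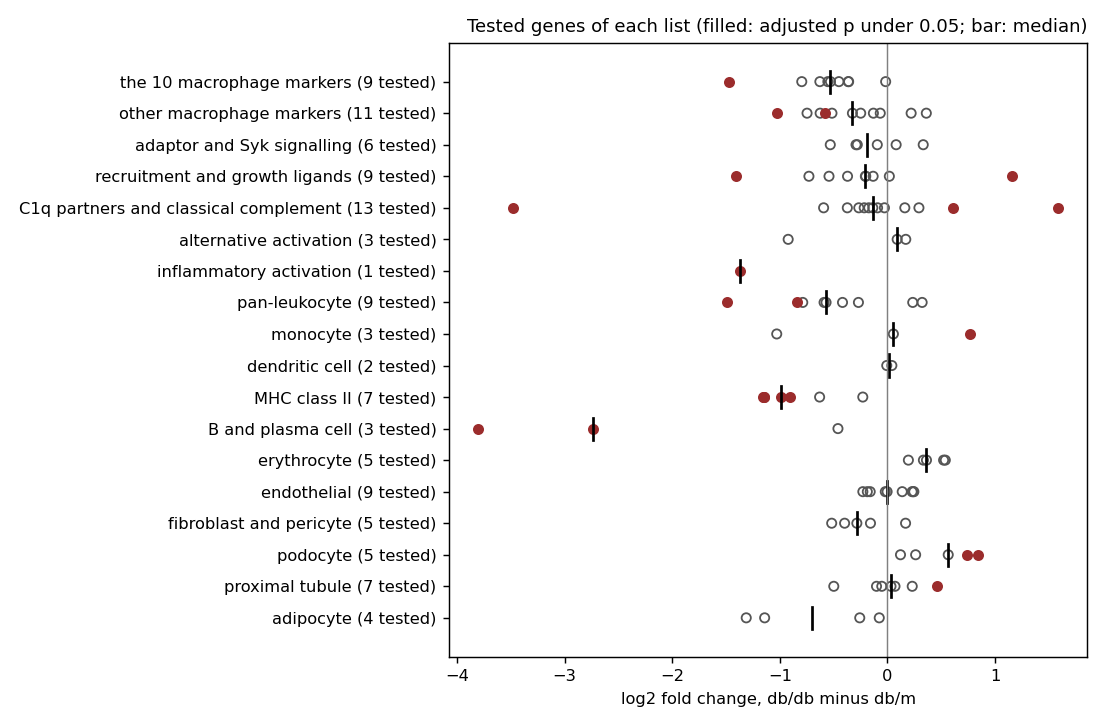
Log2 fold change (db/db minus db/m) of every tested gene of 18 lists, filled where the edgeR adjusted p was under 0.05, with a bar at each list's median. The 9 tested macrophage markers have a median of -0.53, between MHC class II at -0.99 and the other macrophage markers at -0.33, while endothelial genes lie around 0. Medians under -0.53 also belong to B and plasma cell (-2.74), adipocyte (-0.70) and pan-leukocyte genes (-0.57) and to the 1 inflammatory gene (-1.37).

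Finally, genes were ranked by how closely their log2 CPM, centred within each group, followed the mean of the 9 tested markers over the 17 libraries. The 8 highest Pearson r were those of Add2 (0.802), Chst8 (0.779), Dtx4 (0.771), St3gal2 (0.760), Stx18 (0.741), Inava (0.734), Lst1 (0.730) and Tgm2 (0.730). Lst1 is a leukocyte gene. Add2, the first of them, was called higher in db/db (1.19, SE 0.29; edgeR adjusted p = 0.0125), and none of the others was called. Only Inava (-0.34, SE 0.29) and Lst1 (-0.56, SE 0.27) had negative log2 fold changes. They were picked as the highest of 11012 genes over the same libraries, whose depth and composition they share, so the values are a description only.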

How the data were processed

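Per the labels, polyadenylated RNA of 17 kidneys was made into QuantSeq 3′ libraries (forward orientation), in which each read marks a transcript end and transcript length plays no part. The labels' protocol text speaks of cells in plates, while tissue and titles give kidney. The authors deposited raw counts per mouse Ensembl gene, and the submitters' processing notes name STAR 2.7.3a, HTSeq 2.16.2 and the human build GRCh38. Not given in the sources used here are the mouse build, annotation, strand setting and any molecular identifiers, so overlapping genes are uncertain, and only chromosomes (GENCODE M21) and RefSeq promoter positions are printed. Symbols were matched for 55141 of 55487 identifiers. Reads outside genes (19.3%) and ambiguous reads (0.533%) were left out.

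Counts were tested with edgeR 4.0.16 in R 4.3.3 (quasi-likelihood F-test, TMM, filterByExpr with a minimum count of 10, no covariate, all 17 libraries), with Benjamini-Hochberg adjustment over 12131 genes and calls at an adjusted p under 0.05. CPM is given as mean ± SD, and log2 CPM with a prior count of 2. Each SE was obtained as the fold change (log2) over the square root of F. Single genes were also tested by exact two-sided permutation over 24310 groupings, unadjusted. Correlations were tested within each group by exact permutation. The edgeR script was tested on simulated counts. Libraries stood apart if over 3 scaled MAD from their group's median on principal component 1 or 2. No library was a copy of another (lowest chi-square per degree of freedom within a group 3.83). Separate animals are taken as replicates. Same-numbered animals of the 2 groups were not paired. DESeq2 1.42.0, RLE scaling, no filter, the robust option, a replicate block, leaving out mitochondrially encoded genes, and leaving out libraries were tried.

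The 10 markers, the 20 other lists and the tests were chosen with earlier results of these data known. Named are the markers, the 3 tested genes with the smallest p of each immune-related list (1 for lists of other cells), and the 8 genes most like the markers. A single gene that this rule names is not reported here. Csf1, Cx3cl1, C4b, C1s1, C1ra, Gapdh and Lyz1 were added after their values were seen. So was every other named gene under the filter except Adgre1, among them Cd55, Masp1, Ccr2 and Trbc2.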

Additional observations from a re-analysis of the deposited data

Results flagged for a closer look

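C1qa in db/db replicate 8 was at 40.4 CPM, far above the next db/db animal at 21.8 CPM, a gap that took up 0.587 of the group's range. C1qa in db/m replicate 6 was at 28.2 CPM with the next db/m animal at 22.0 CPM, a gap of 0.555 of the range. Among the 28 sets of values searched (the 10 genes, the 3 shares of the C1q chains and the summed level, in each group), chance flags about 1 in 20. The summed level of the 10 genes was highest in the same 2 libraries, at 252 CPM in db/db replicate 8 and 299.9 CPM in db/m replicate 6. This sum includes C1qa itself, and Csf1r is its largest part, at 135 and 177 CPM in these libraries. Without Csf1r the sums were 117 and 123 CPM, again the highest of each group. In db/db replicate 8 the sum for 32 other macrophage markers, Mertk foremost, was also the highest of its group, at 349 CPM. So was the sum of the 15 pan-leukocyte genes, 82.8 CPM. Not all immune genes were high there. The sums of the monocyte list, 23.6 CPM, and the inflammatory list, 2.69 CPM, were the lowest of the db/db group. Tyrobp at 1.66 CPM and Lyz2 at 12.0 CPM lay under their db/db medians of 2.11 and 14.3 CPM. Erythrocyte genes summed to 1142 CPM, the lowest of all 17 libraries.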

How the results depend on the processing

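All tallies of alternative fits count the fit without db/db replicate 9 under 2 names, so it enters each of them 2 times. Clec7a was lower and called in all 25 alternative fits, at -1.60 to -1.38 (edgeR or DESeq2 adjusted p 5.11e-05 to 0.0175), and had the smallest exact permutation p of the 10 genes. C1qb, C1qc, Csf1r, Mrc1 and Tyrobp had negative values and no call in all 25, C1qa and Cx3cr1 were negative in all 25 and called in 2 and 1, and Lyz2 had 17 negative and 8 positive values, none called. Without the 3 libraries that stood apart, 3 markers were called lower (Clec7a, C1qa and Cx3cr1) in place of 1. Leaving out 1 library gave 1 to 2 markers called lower (2 without db/db replicate 8, with C1qa) and 0 higher, 319 to 666 genes higher and 318 to 571 lower over all genes, and 0 to 1 correlations past adjustment. With the replicate number as a block, 194 genes were higher and 231 lower, against 380 and 352 in the same 16 libraries without it, and Clec7a stayed called (-1.40). Same-numbered animals had correlations of -0.45 to 0.21, 2 of 8 over 0.1, and 0 of 8 db/m libraries resembled their own number most. DESeq2 called 635 higher and 602 lower. The scalings tried moved the median of all genes by less than 0.1 on the log2 scale. Adgre1, under the filter, was positive without a filter (0.45), by DESeq2 (0.46) and as the difference of mean log2 CPM (0.32). Depth limits Adgre1, Mrc1, Tyrobp and Clec7a, with 42 to 195 counts per group in db/m.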

Other observations

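Several immune genes too low for the filter were looked at in the fit of all 25107 genes with any count, in which 1.66% were called lower and 1.62% higher. They were chosen after their values were seen. Xcr1, a chemokine receptor of type 1 conventional dendritic cells, had 20 counts in 7 of 8 db/m libraries and 0 counts in the 9 db/db libraries (edgeR adjusted p = 0.00949). With 3 counts over the db/db group in place of 0, Xcr1 would be 7.13-fold lower. That value takes the 20 counts as exact and leaves out the spread between animals, so it is no lower bound. Wdfy4, which those cells need for cross-presentation, had 110 and 29 counts (-1.98, SE 0.45; edgeR adjusted p = 0.00836). Clec9a had 22 and 6 counts, whereas Batf3, a transcription factor of the same cells, had 29 and 59 counts (0.998, SE 0.44; edgeR adjusted p = 0.255). Jchain, which joins polymeric IgA, had 169 and 30 counts (-2.48, SE 0.48; edgeR adjusted p = 0.00179). Without db/db replicate 8, a setting added after the data were seen, Xcr1, Wdfy4 and Jchain were again called lower (edgeR adjusted p 0.0118, 0.00870 and 0.00136).

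Folr2 and Gpnmb, which mark other macrophage states, had more counts in db/db. Folr2, a folate receptor of resident macrophages, had 43 and 123 counts (1.35, SE 0.41; edgeR adjusted p = 0.0699, DESeq2 adjusted p = 0.0221). Gpnmb, a glycoprotein of lipid-laden macrophages that other cells also make, had 40 and 115 counts (1.43, SE 0.48; edgeR adjusted p = 0.110, DESeq2 adjusted p = 0.0558). Neither was called by edgeR in this fit. Other listed macrophage markers under the filter went both ways. Lyve1 had 75 and 99 counts and Cd14 69 and 95. Pf4 had 69 and 45 counts, Trem2 12 and 10 and Cd163 29 and 28. Retnla, a secreted product of alternatively activated macrophages, had 86 and 20 counts (-2.18, SE 0.62; edgeR adjusted p = 0.0491), and its call ended without db/db replicate 8 (edgeR adjusted p = 0.0674). Other genes of the alternative activation list under the filter went both ways. Chil3 had 0 and 9 counts (3.34, SE 1.02; edgeR adjusted p = 0.0858). Arg1 had 1 and 11 (2.24, SE 0.96; edgeR adjusted p = 0.239), with 9 of the 11 in 1 library. Pparg had 40 and 18, Ccl24 6 and 1 and Ccl22 3 and 2.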
